A study of Homo sapiens with 28 samples.

Results

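The regions of H3K27ac that appeared or disappeared when FOXF1 and FOXF2 were knocked down in senescent fibroblasts are described here, from 4 of the 28 CUT&RUN libraries of the series. CUT&RUN tethers a nuclease to an antibody so that DNA next to the bound protein or mark is cut out and sequenced. The cells were IMR-90 ER:Ras, human fetal lung fibroblasts with an oncogenic Ras that 4-hydroxytamoxifen switches on. Both groups received 100 nM 4-hydroxytamoxifen for 6 days. The 2 libraries titled Sen received a control siRNA (siCtrl), and the 2 titled Sen-siFOXF1/2 received siRNA against FOXF1 and FOXF2. Peaks of the 4 lists on chromosomes 1 to 22 and X were joined where they overlapped by at least 1 bp, which gave 125299 regions. A region was counted as gained when both Sen-siFOXF1/2 libraries and neither Sen library held a peak, and as lost when the reverse held. This gave 6898 gained regions, 5.51% of all, and 5343 lost regions, 4.26% of all. Another 33449 regions (26.7%) held a peak in all 4 libraries and served as the shared set.

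H3K27ac is acetylation of lysine 27 on histone H3, a mark laid down mainly by p300 and CBP at active enhancers and promoters. FOXF1 and FOXF2 are forkhead transcription factors of the lung mesenchyme, the tissue from which these fibroblasts come. AP-1, the dimeric factor to which phosphorylated c-JUN (p-c-JUN) belongs, is a main organiser of the enhancers that become active in Ras-induced senescence.

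FOXF1 lists held 13603 and 40537 peaks in Sen cells and 186 and 133 after siFOXF1/2, where the narrowest peak was 76 bp long in both lists against 194 and 201 bp in Sen cells. Short FOXF1 lists, with 378 and 883 peaks and a narrowest peak of 222 and 245 bp, also came from Sen cells with JUN family members knocked down. These are of a second deposit without FOXF1 lists of control Sen cells, so that knockdown and deposit cannot be told apart. No list measured FOXF2. The Sen H3K27ac lists held 84864 and 60862 peaks, and those after siFOXF1/2 held 84673 and 71746. The mean log2 number of peaks was 0.12 ± 0.27 (SE, n = 2 libraries a group) higher after siFOXF1/2, with an exact two-sided permutation p of 1, where the smallest p this design allows is 0.33. Peaks covered 55.8 and 32.3 Mb in the Sen lists and 55.5 and 41.8 Mb after siFOXF1/2, so replicate 2 of both conditions was the shorter list. The number of mapped reads is unknown, and the depth estimated from the lists was 8.10 and 6.59 fragments per kb in Sen cells against 6.81 and 5.64 after siFOXF1/2. Nothing says that the replicates came from separate cultures, so the spread between them may be technical.

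Most H3K27ac of senescent cells was still called after siFOXF1/2. The Sen libraries had 45269 regions in common, of which 83.7% and 78.4% held a peak in the first and second siFOXF1/2 library and 11.8% in neither. In the other direction, 52556 regions were held by both siFOXF1/2 libraries, of which 83.9% and 66.7% had a peak in the Sen libraries and 13.1% in neither. Just outside the rule lay 6477 regions of both Sen libraries that exactly 1 siFOXF1/2 library held, and 12209 regions of both siFOXF1/2 libraries that exactly 1 Sen library held. Of the second, 10622 were held by the longer Sen list and 1587 by the shorter. Regions of a single library were common, from 7382 in the shorter Sen list to 17324 in the longer one.

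**Figure D1:**
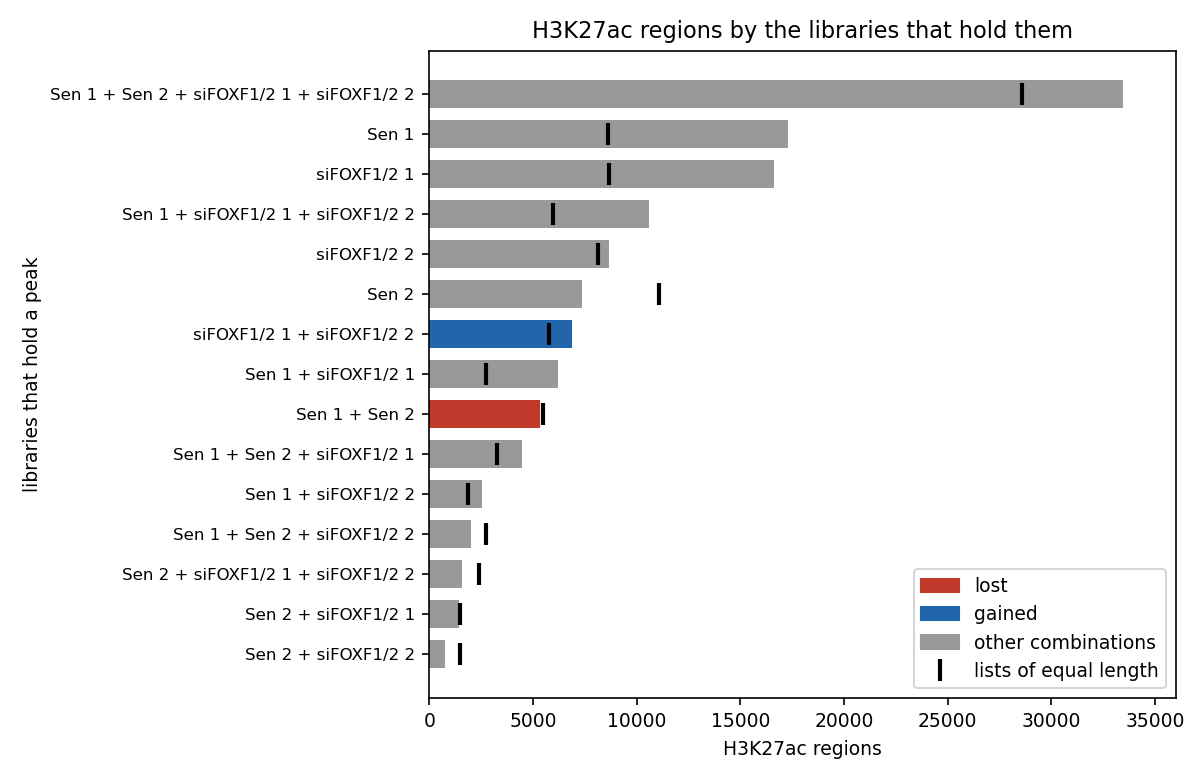
H3K27ac regions (x axis, number) by the libraries that hold a peak in them (y axis, 1 bar for each of the combinations of Sen and siFOXF1/2 replicates), with black marks for the same count when each list is cut to its best 60862 peaks. The shared set of 33449 regions is the longest bar, the 6898 gained regions are blue and the 5343 lost regions red.

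The surplus of gained over lost regions was smaller with lists of equal length. When each list was cut to its best 60862 peaks by −log10 q, the length of the shortest, 5776 regions were gained (5.87% of 98351) and 5482 lost (5.57%). The lost regions overlapped between both settings for 3515 regions, 65.8% of the deposited set and 64.1% of the equal-length set. For gained regions the overlap was 3866, or 56.0% and 66.9%. Pairs made of 1 Sen and 1 siFOXF1/2 library, which differ in siRNA, held between 770 and 6201 regions exclusively in the deposited lists, so that the lost count lay inside that range. At equal length they held 1467 to 2729, below both classes.

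Gained and lost regions were alike in shape: between the shared regions and the remainder in width, and made of single peaks. Lost regions had a median width of 566 bp (quartiles 442 and 737) and gained regions 573 bp (442 and 749), while shared regions measured 1166 bp (876 and 1543) and the 79609 regions of all other combinations 388 bp (274 and 605). In 98.4% of lost and 97.5% of gained regions, each of the libraries that held the region had 1 peak there. The fold enrichment over local background, a value the authors' peak caller gave each peak, had a median of 3.71 and 3.74 at lost regions in the Sen libraries. At gained regions it was 3.90 in both siFOXF1/2 libraries. The medians lay at 4.04 to 4.58 for shared regions and at 3.53 to 3.74 for the other combinations. Ranked by −log10 q within its own list, the median lost region stood 59.8% and 60.6% of the way from the top, and the median gained region 59.4% and 64.0%. Only 1.35% and 2.10% of lost regions, and 1.49% and 1.52% of gained regions, were among the best 10% of peaks in their lists, against 16.9% to 23.8% of shared regions.

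Both classes lay at a similar distance from other acetylated chromatin as the remaining regions. The nearest shared region lay a median of 14.0 kb from a lost region, 14.6 kb from a gained region and 14.6 kb from regions of all other combinations. A peak of the other condition lay within 1 kb of 19.3% of lost and 19.2% of gained regions. Only 2.81% of lost and 3.90% of gained regions were more than 50 kb from any peak of the other condition. With lists of equal length, 15.1% of lost and 15.8% of gained regions lay within 1 kb of a kept peak of the other condition. Of these equal-length classes, 35.8% of lost and 33.0% of gained regions overlapped a weaker peak of the other condition that the shorter lists left out.

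The p-c-JUN libraries were made separately from those that defined the regions, and in them the share of regions with p-c-JUN differed in the direction of H3K27ac for both classes. In Sen cells p-c-JUN peaks overlapped 27.3% and 39.4% of lost regions, and after siFOXF1/2 14.8% and 20.4%. At gained regions the shares were 38.4% and 46.1% in Sen cells and 54.5% and 58.7% after siFOXF1/2. The groups did not overlap in either class, with both siFOXF1/2 libraries below both Sen libraries at lost regions and above them at gained regions. At shared regions the ranges overlapped, at 69.6% and 79.7% in Sen cells and 68.0% and 74.4% after siFOXF1/2. Over all 125299 regions the shares were 39.7% and 47.9% in Sen cells and 40.7% and 45.5% after siFOXF1/2.

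The mean share of lost regions with p-c-JUN thus differed by -15.8 points (± 6.67 SE, n = 2 libraries a group) after siFOXF1/2, and that of gained regions by 14.4 (± 4.39). The difference at shared regions was -3.45 (± 5.98). The gap between lost and gained regions, taken within each library, went from a mean of -8.9 points in Sen cells to -39.0 after siFOXF1/2, a change of -30.1 (± 2.31). By the exact two-sided permutation test the p was 0.33 for lost regions, for gained regions and for the gap, the smallest that 2 libraries against 2 allow, and 0.667 for shared regions. Adjusted over the 5 tests on shares these were 0.417 and 0.667, so none passed a threshold of 0.05. Both lists of regions and the p-c-JUN lists compare the same treatments, and whether they came from the same cultures is not stated.

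**Figure D2:**
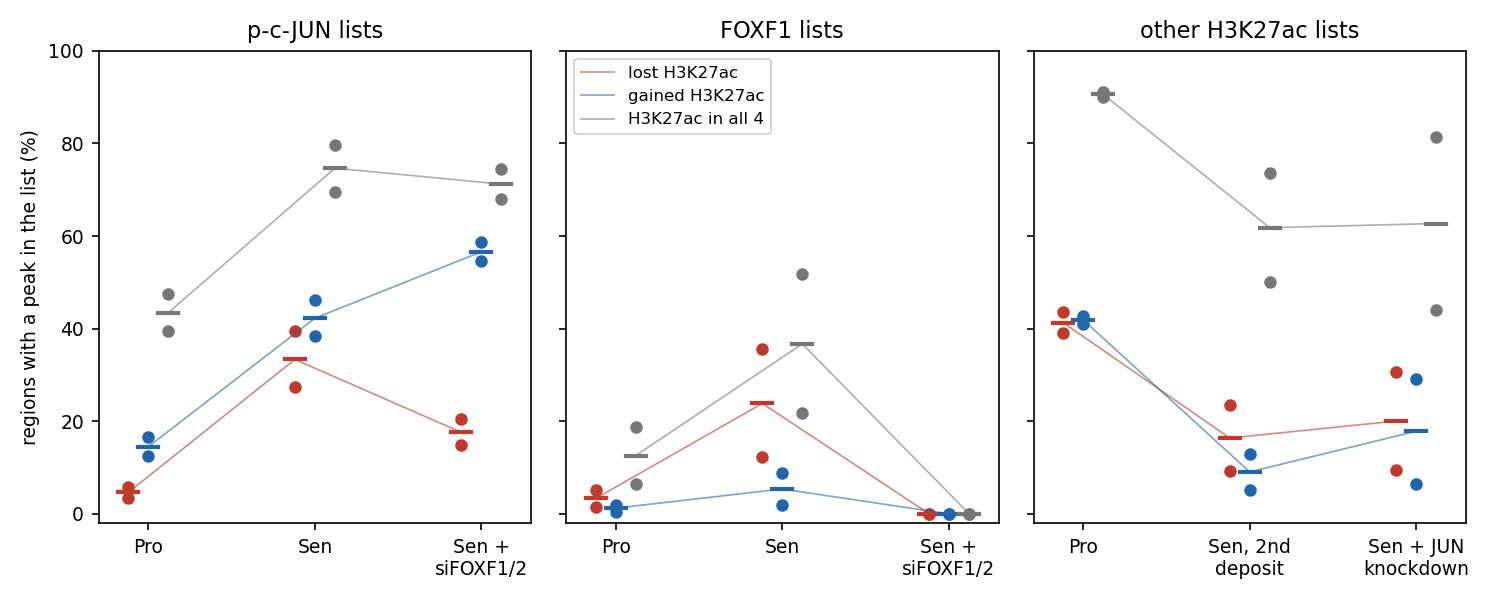
Share of lost (red), gained (blue) and shared (grey) H3K27ac regions with a peak (y axis, percent) in each p-c-JUN, FOXF1 and other H3K27ac list (x axis, group). Each point is 1 library, bars are group means and lines join the means; after siFOXF1/2 the p-c-JUN points of lost regions sit at 14.8% and 20.4% and those of gained regions at 54.5% and 58.7%.

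Counting regions rather than shares gave the same order. Of lost regions, 411 (7.69%) also lost p-c-JUN, with a peak in both Sen and neither siFOXF1/2 library, and 20 (0.374%) gained it. Of gained regions, 570 (8.26%) also gained p-c-JUN and 45 (0.652%) lost it. Over all regions the shares were 2.25% for loss and 2.29% for gain of p-c-JUN, and among shared regions 2.37% and 1.20%. Most members of both classes thus neither lost nor gained p-c-JUN by this rule. p-c-JUN was in none of the 4 lists at 54.0% of lost and 31.1% of gained regions, against 41.3% of all regions. It was in all 4 lists at 10.3% and 30.3%, against 29.7% of all regions. All regions include the shared ones, which had p-c-JUN in none of the 4 lists at 12.9% and in all 4 at 58.1%.

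Seen from the p-c-JUN side, 5163 of 128056 joined p-c-JUN regions (4.03%) lost p-c-JUN after siFOXF1/2, and 7.73% of them overlapped a lost H3K27ac region against 0.833% a gained one. Of the 5730 that gained p-c-JUN (4.47%), 9.74% overlapped a gained and 0.314% a lost H3K27ac region. No H3K27ac peak of the 4 libraries overlapped 44.3% of the first and 51.7% of the second. Regions that differed in both marks were thus a small share of either set.

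FOXF1 of senescent cells was found at lost regions more often than at gained ones. The Sen FOXF1 lists overlapped 12.2% and 35.5% of lost regions, 1.84% and 8.92% of gained regions, and 21.7% and 51.7% of shared regions. In both libraries lost regions stood between the other classes, and above the 9.44% and 25.6% over all regions. FOXF1 peaks were held by both Sen lists at 576 lost regions (10.8%), 100 gained regions (1.45%) and 8.31% of all regions. Sites where FOXF1 was in both Sen and neither Pro list made up 7.80% of lost, 0.855% of gained and 4.24% of all regions. The order of lost over gained was also present in the FOXF1 lists of Pro libraries. They overlapped 1.44% and 5.22% of lost, 0.478% and 2.0% of gained, and 2.47% and 7.75% of all regions. Within 1 kb of a FOXF1 peak lay 16.0% and 42.6% of lost against 3.68% and 14.5% of gained regions. After siFOXF1/2, FOXF1 peaks remained at 3 and 2 lost regions and at 0 gained regions.

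Of the 11287 FOXF1 regions held by both Sen lists, 57.9% overlapped a shared H3K27ac region, 5.17% a lost one, 0.939% a gained one and 8.63% no H3K27ac region. Of all H3K27ac regions, 26.7% were shared, 4.26% lost and 5.51% gained. These sets differ in their part of shared regions, so their shares of lost ones are not like for like. Of the 10417 H3K27ac regions with FOXF1 in both Sen lists, 6592 were shared, 576 lost and 100 gained. With both libraries of each condition the mean FOXF1 shares were 23.9% at lost and 5.38% at gained regions. Without Sen replicate 1 in the definition, which left lost regions a median of 309 bp wide and gained regions 647 bp, they were 13.3% and 13.1%, so the contrast ended there. They were 12.5% and 6.50% without Sen replicate 2, 24.3% and 4.04% without siFOXF1/2 replicate 1, and 24.7% and 3.95% without siFOXF1/2 replicate 2.

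The order held when regions of similar width were compared. Among regions of 219 to 482 bp, Sen FOXF1 overlapped 6.91% and 23.9% of lost regions, and 1.91% and 8.51% of gained ones. Above 676 bp it overlapped 19.2% and 49.0% of lost and 1.81% and 9.59% of gained regions. The FOXF1 share was higher at wider lost regions and lay between 1.81% and 1.91% in the first library at gained ones. p-c-JUN after siFOXF1/2 had the opposite order, with 68.6% and 73.5% of the widest gained regions against 15.6% and 20.8% of the widest lost ones.

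p-c-JUN after the knockdown differed between the classes also among regions held by the same number of FOXF1 and p-c-JUN lists in Sen cells. Over all regions 36.1% had p-c-JUN in both Sen lists, and 23.7% of lost and 33.2% of gained regions did. Where FOXF1 was in neither Sen list, 55.9% and 67.2% of 531 such lost regions had p-c-JUN after siFOXF1/2, against 93.8% and 96.5% of 1874 gained and 88.5% and 92.9% of 7866 shared regions. Where FOXF1 was in both Sen lists, 39.3% and 55.2% of 252 lost regions had it, against 88.3% and 92.2% of 77 gained and 90.3% and 95.3% of 5765 shared regions. Among lost regions with p-c-JUN in both Sen lists, those with FOXF1 in 1 list lay between, at 46.1% and 60.3% of 484. The share was lower with more FOXF1 lists in each of the siFOXF1/2 libraries, though the ranges of the 2 libraries overlapped from one step to the next.

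The largest group in both classes had no peak of either factor in any Sen list. It held 2277 lost regions (42.6%) and 3248 gained regions (47.1%). After siFOXF1/2, p-c-JUN overlapped 2.28% and 3.86% of the first and 24.4% and 28.7% of the second. Shared regions of that status, of which there were 4522, had 12.8% and 17.6%.

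**Figure D3:**
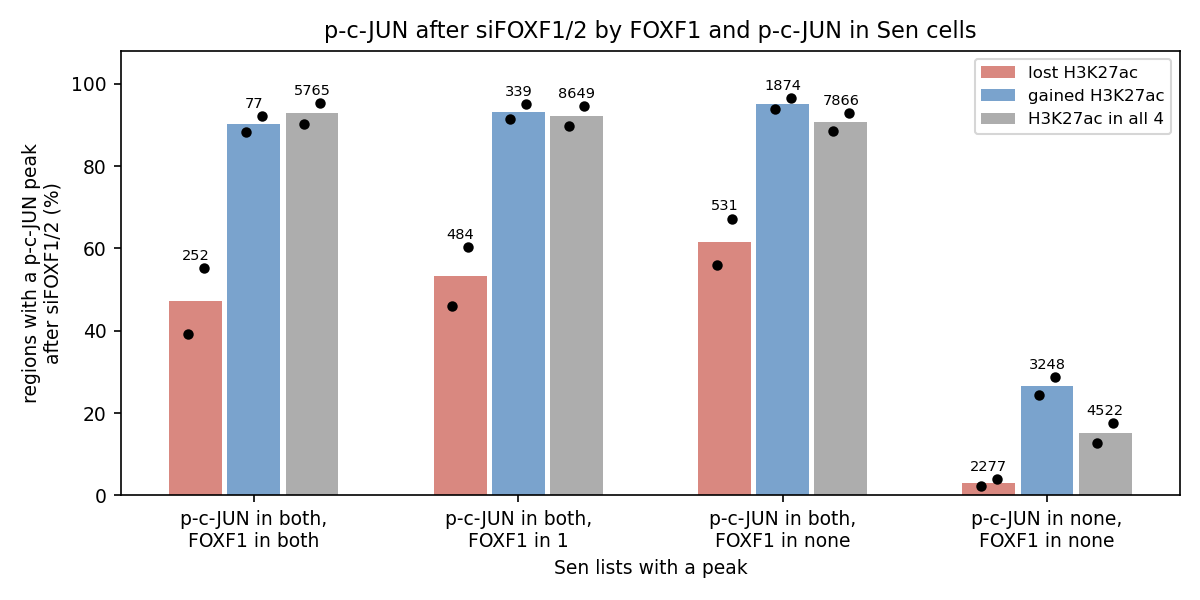
Share of regions with a p-c-JUN peak after siFOXF1/2 (y axis, percent) by class of H3K27ac region and by the number of Sen lists with p-c-JUN and with FOXF1 (x axis). Bars are means of 2 libraries, points the libraries, and numbers above count the regions; with p-c-JUN in both and FOXF1 in no Sen list, lost regions reached 55.9% and 67.2% and gained ones 93.8% and 96.5%.

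Sen H3K27ac libraries that took no part in the definition held a minority of members of either class. The Sen libraries of the second deposit, with 48859 and 26694 peaks, held 23.5% and 9.26% of lost regions, 12.9% and 5.22% of gained regions, 73.5% and 50.1% of shared regions, and 32.0% and 18.5% of all regions. The Sen controls of the p300/CBP knockdown, with 8234 and 2046 peaks, held 4.02% and 0.73% of lost and 1.28% and 0.406% of gained regions, against 5.84% and 1.52% of all regions. Lost regions were thus held less often than all regions in each of the 4 libraries. All regions include the shared set, which was held far more often. This order therefore does not compare lost regions with others outside the shared set. The share of lost regions exceeded that of gained regions in 4 of 4 of these libraries, by 4.43 points (± 2.20 SE, n = 4). The exact sign-flip permutation p was 0.125, the smallest that 4 libraries allow, and 0.417 after adjustment.

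These libraries still left most lost regions without a peak. Both Sen lists of the second deposit held 332 lost regions (6.21%, against 15.8% of all regions), and neither held 3926 (73.5%, against 65.3%). Of the 19794 regions that both lists held, 15504 were shared ones. Gained regions were absent from both in 5827 cases (84.5%). Shared regions, which are wider, were in both at 46.4%. The order of lost over gained turned when either Sen library of the first deposit was left out, which made lost a call of 1 library. Mean shares in the second deposit were 10.0% at lost and 20.5% at gained regions without replicate 1 (median widths 309 and 647 bp). They were 8.83% and 10.8% without replicate 2 (335 and 583 bp). The order held without siFOXF1/2 replicate 1 (23.4% and 6.22%) or 2 (18.8% and 5.94%), where gained was a call of 1 library. It also held with −log10 q of 5 or more (41.3% and 25.2%) and with lists of equal length (22.5% and 13.6%).

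Lost and gained regions had similar shares of H3K27ac in proliferating cells. The libraries titled Pro (proliferating), which the labels nevertheless tag as senescent and 4-hydroxytamoxifen treated, held H3K27ac at 39.1% and 43.5% of lost and 41.0% and 42.8% of gained regions. Both Pro libraries had a peak at 30.2% of lost and 31.3% of gained regions, and neither at 47.6% and 47.4%. Over all regions these shares were 45.7% and 38.3%, and the single Pro libraries held 52.8% and 54.6%, so both classes lay below all regions. All regions include the shared set, with 86.8% in both Pro libraries and 5.64% in neither. It made up 29041 of the 57261 regions in both, so both classes are not shown to lie below others outside the shared set. p-c-JUN in Pro libraries was lower at lost than at gained regions, at 3.52% and 5.78% against 12.4% and 16.6%. All regions had 17.6% and 22.1%, and the shared ones among them 39.4% and 47.5%. After knockdown of JUN family members, H3K27ac peaks overlapped 30.6% and 9.51% of lost and 29.2% and 6.52% of gained regions, against 43.3% and 18.2% of all. The classes differed by 1.4 and 2.99 points within each library, less than the libraries differed from each other.

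Some members stood close together. Joining regions of one class that lay at most 50 kb apart put 573 lost regions into 169 runs of 3 or more and 1048 gained regions into 305 such runs. Other regions were not joined this way, so whether either class stood closer together than regions in general was not tested. Lost regions lay a median of 93.05 kb from the nearest lost and 93.01 kb from the nearest gained region. For gained regions the medians were 71.4 kb to the nearest gained and 123.1 kb to the nearest lost region. The gained run with most regions, chr5:157834055-157980789, held 10 gained regions in 147 kb and no lost or shared one. H3K27ac peaks there numbered 0 and 1 in Sen cells, 14 and 14 after siFOXF1/2, and 2 and 3 in Pro libraries. p-c-JUN peaks numbered 6 and 8 in Sen cells and 14 and 14 after siFOXF1/2, and FOXF1 peaks 0 and 3 in Sen cells. With lists of equal length, 7 of the 10 regions kept their class.

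The other named gained runs held fewer gained regions and also had more H3K27ac peaks after siFOXF1/2 than in Sen cells. At chr11:77964885-78030844, 7 gained regions stood with 2 and 3 H3K27ac peaks in Sen cells against 8 and 9 after siFOXF1/2. At chr9:16417249-16484886, with 6 gained regions, the peaks were 1 and 2 against 10 and 8. At chr2:55658948-55746176, also with 6, they were 0 and 1 against 6 and 6, and 2 of the 6 kept their class at equal length. The run chr1:59566516-59764653 lay in a stretch already acetylated in Sen cells, with 13 and 12 peaks against 19 and 20 and 5 shared regions among its 24. In each of these 4 runs the numbers of p-c-JUN peaks in Sen and siFOXF1/2 libraries overlapped, for example 5 and 7 against 6 and 7 in the run on chromosome 11.

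The leading lost run, chr18:10969039-11113027, held 7 lost regions in 144 kb, and 6 of the 7 kept their class at equal length. It had 14 and 15 H3K27ac peaks in Sen cells and 5 and 4 after siFOXF1/2, with 14 and 11 in Pro libraries. FOXF1 peaks numbered 7 and 6 in Sen cells and 0 after siFOXF1/2, and p-c-JUN peaks 9 and 10 against 6 and 6. The Sen libraries of the second deposit, which were shorter lists, had 2 and 2 H3K27ac peaks there.

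The run chr6:148020699-148174487 held 6 lost regions, with 8 and 10 H3K27ac peaks in Sen cells against 2 and 3 after siFOXF1/2. In the other lost runs the difference was smaller. At chr5:138847947-139011576 the peaks were 16 and 19 against 12 and 11, and at chr5:173932833-174034277 they were 10 and 9 against 7 and 5. At chr12:116437256-116591852 they were 17 and 12 against 13 and 9, so that the conditions overlapped.

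**Figure D4:**
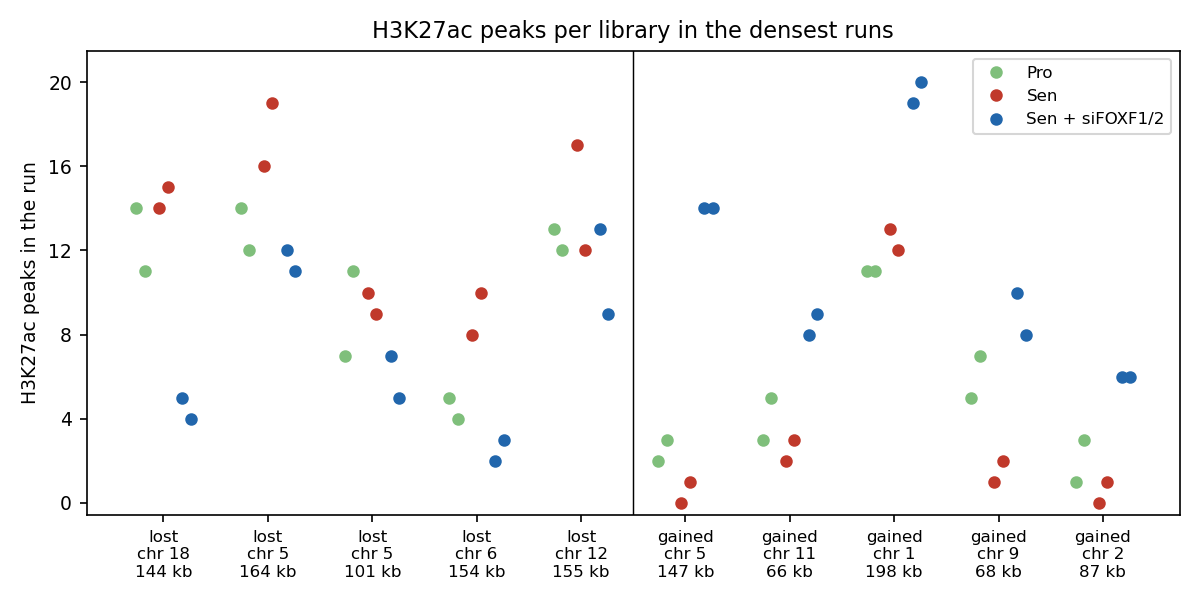
H3K27ac peaks (y axis) in each Pro, Sen and siFOXF1/2 library within the densest runs of lost (left of the line) and gained (right) regions (x axis, with chromosome and span). Points are single libraries; the runs were chosen by their lost or gained regions, so the order of Sen and siFOXF1/2 is a description, as in the gained run with 0 and 1 against 14 and 14 peaks.

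The best ranked members were described by their FOXF1 and p-c-JUN peaks. Of the 10 lost regions with the best rank in the weaker of their Sen libraries, 8 had a FOXF1 peak in a Sen list, 8 had p-c-JUN in a Sen list and 2 had p-c-JUN after siFOXF1/2. Of the 10 gained regions chosen likewise, 0 had FOXF1, 6 had p-c-JUN in Sen cells and 9 had it after siFOXF1/2. Over all regions a peak in either list was found at 26.7% for FOXF1 in Sen cells, 51.5% for p-c-JUN in Sen cells and 49.8% for p-c-JUN after siFOXF1/2. Both sets of 10 are too small to read a difference from. The lost region chr5:141968764-141969678 (fold enrichment 4.90 in both Sen lists) had FOXF1 in both Sen lists, and chr12:11838165-11839300 (5.09 and 4.09) had FOXF1 in both and H3K27ac in both Pro lists. Neither had p-c-JUN after siFOXF1/2. The lost region chr15:75891532-75892100 (7.20 and 7.43) had p-c-JUN in both Sen lists and in neither siFOXF1/2 list.

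Among the gained regions, chr2:41949664-41951054 (5.86 and 5.98 in the siFOXF1/2 lists) and chr11:75648573-75650006 (6.08 and 5.98) had p-c-JUN after siFOXF1/2 in 1 and 2 lists and in no Sen list. The gained region chr12:96570319-96571459 (8.11 and 7.15) and chr17:39334635-39335850 (6.65 and 7.27) had p-c-JUN in both Sen and both siFOXF1/2 lists. The last also had H3K27ac in both Sen lists of the second deposit, and those on chromosomes 11 and 12 in 1. Either of these lists held 6 of the 10 gained and 6 of the 10 lost regions. Its share was 15.5% of all gained, 26.5% of all lost and 34.7% of all regions. The gained region chr6:113681042-113681728 (4.06 and 3.58) overlapped no peak in any of the 24 other lists. One lost region, chr9:66971067-66971409 (11.5 and 8.89), overlapped a peak in all 24 other lists, those of FOXF1 after siFOXF1/2 included. It supplied 1 of the 8 lost regions with FOXF1, 1 of the 8 with p-c-JUN in Sen cells and 1 of the 2 with p-c-JUN after siFOXF1/2.

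The widest members were of similar size in both classes. The widest lost region, chr11:27731367-27733562, measured 2196 bp (fold enrichment 3.80 and 2.93) and carried FOXF1 and p-c-JUN in both Sen lists and p-c-JUN in no siFOXF1/2 list. The gained region chr10:106006177-106008239 measured 2063 bp (5.73 and 6.67) and carried p-c-JUN in both siFOXF1/2 lists and in no Sen list. It also carried H3K27ac in 1 Sen list of the second deposit. Of the 5 widest of each class, p-c-JUN after siFOXF1/2 was in either list at 5 gained and 1 lost.

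Both classes were spread over every chromosome. Gained regions outnumbered lost ones 1.29 to 1, from 0.949 on chromosome 22 to 1.52 on chromosome 12. With lists of equal length the ratio was 1.05, lowest on chromosomes 22 (0.607) and 16 (0.699) and highest on chromosome 17 (1.19). Chromosome 22 had 74 gained and 78 lost regions, so its ratio rests on few members. Over 2611 windows of 1 Mb, the numbers of gained and lost regions correlated (Pearson 0.357, Spearman 0.430), as a description: windows share the 4 libraries, and both numbers rose with that of shared regions (Pearson 0.588 and 0.543).

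**Figure D5:**
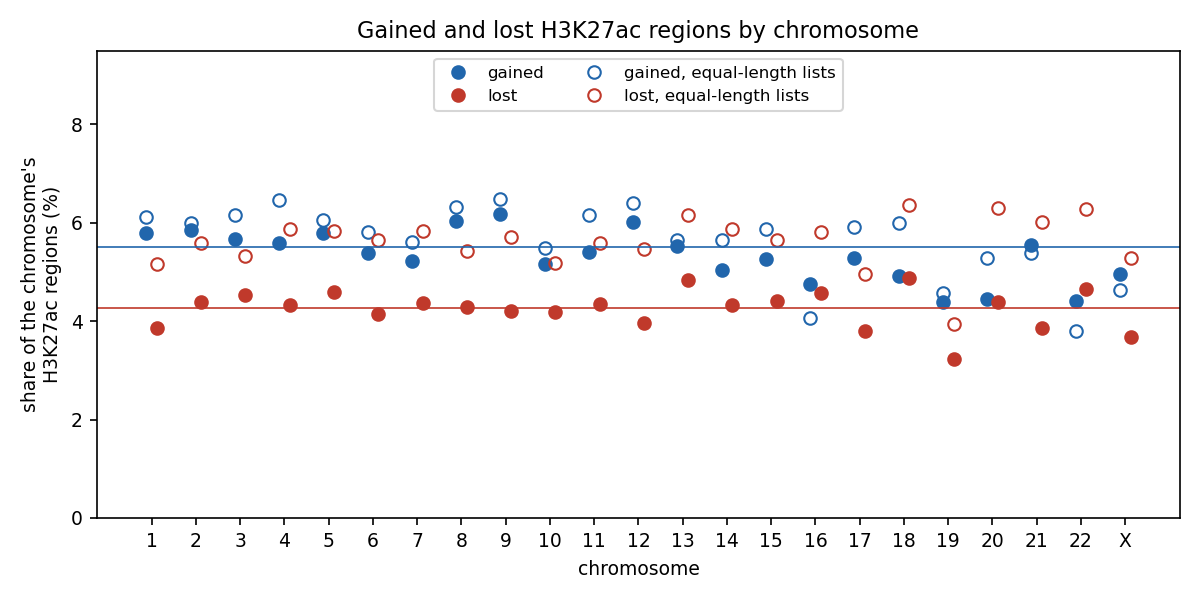
Gained (blue) and lost (red) regions as a share of each chromosome's H3K27ac regions (y axis, percent; x axis, chromosome), filled for the deposited lists and open for lists of equal length, with lines at the shares over all chromosomes, 5.51% and 4.26%. Gained points lie above lost points on all chromosomes but 22 with the deposited lists.

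Of the 2611 windows, 349 held gained but no lost regions and 265 held lost but no gained ones. The windows named here had the largest differences and were picked after their values were seen. The window at 16 to 17 Mb of chromosome 9 held 21 gained and 2 lost regions, with 65 and 40 H3K27ac peaks in Sen cells against 95 and 87 after siFOXF1/2. The window at 64 to 65 Mb of chromosome 10 held 15 gained and 0 lost, and that at 222 to 223 Mb of chromosome 1 held 14 and 0. In the other direction, the window at 109 to 110 Mb of chromosome 12 held 0 gained and 9 lost regions, with 51 and 38 peaks against 46 and 38.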

How the data were processed

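H3K27ac peak lists of 2 Sen and 2 Sen-siFOXF1/2 libraries were compared, with the 24 other lists of the series used for overlap. Each list came from 1 library, and none was pooled. Per the submitters' processing notes, the build was hg19 and the tools included MACS2 3.0.0 (peak calling), deepTools 3.1.1, SAMtools 1.9 and Bowtie2 2.3.4.1; their settings are not given in the sources used here, nor is any use of the yeast spike-in DNA. The deposited columns gave, for every peak, the authors' score, fold enrichment, −log10 p, −log10 q and summit offset. Fold and q served to describe and rank peaks inside 1 list at a time.

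Of 1123812 peaks, 475 (0.0423%) lay outside chromosomes 1 to 22 and X and were left out. Depth in fragments per kb was estimated from the lists, by solving summit pileup and background from fold and −log10 p (a whole pileup gave −log10 p within 0.01 for 100% of peaks used), and carries no interval. Presence, overlap (1 bp) and width were computed with Python 3.11.15, numpy 2.4.6, pandas 2.3.3 and SciPy 1.17.1, and planted regions were recovered in a test on simulated data. Groups came from sample titles. Tests over libraries were exact permutation tests with Benjamini-Hochberg adjustment. Alternatives were −log10 q of 5 or more, overlap of 50% of the shorter peak, lists of equal length, all 4 Sen libraries, a replicate block and each replicate left out. Regions named are the 10 best by their worse rank, the 5 widest and the 5 densest runs of each class, of which some are printed. Coordinates are hg19, counted from 1. No gene annotation or sequence of hg19 was used here, so nearby genes, promoters, motifs and cell type markers are not analysed here. Members, lists and tests were chosen with earlier results of these data known.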

Additional observations from a re-analysis of the deposited data

How the results depend on the processing

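Presence in a peak list is a threshold on depth, and no fold between conditions is given. Settings other than list length applied to widths and shares, and width classes, number of factor lists, nearness within 1 kb and windows, were chosen after seeing the data. Comparisons at genes, promoters and motifs were not run. At lost regions the mean p-c-JUN share was lower, and at gained regions higher, after siFOXF1/2 than in Sen cells under each of the 8 settings tried.

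With −log10 q of 5 or more, 3748 regions were gained and 2141 lost. Mean shares at gained regions were then 25.2% in the Sen H3K27ac lists of the second deposit, 14.0% in FOXF1 Sen, 65.0% in p-c-JUN Sen and 76.2% in p-c-JUN after siFOXF1/2, and at lost regions 41.3%, 41.6%, 57.8% and 38.0%. With lists of equal length, p-c-JUN overlapped 50.7% (Sen) and 64.5% (siFOXF1/2) of gained and, after siFOXF1/2, 24.3% of lost regions. With all 4 Sen libraries 308 regions were lost, with a median width of 910 bp and p-c-JUN at 54.4% in Sen cells and 30.4% after siFOXF1/2.

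With 1 library left out in turn, gained regions numbered 8520 (without Sen replicate 2) to 24052 (without siFOXF1/2 replicate 2) and lost regions 7412 to 22962, each above the count with both, since fewer libraries had to lack or hold a peak. Median widths ranged from 317 to 647 bp (gained) and 309 to 600 bp (lost). Shares of gained regions ranged from 5.94% to 20.5% in the second deposit, 3.95% to 13.1% in FOXF1 Sen, 27.9% to 52.9% in p-c-JUN Sen and 37.1% to 60.7% after siFOXF1/2. Those of lost regions ranged from 8.83% to 23.4%, 12.5% to 24.7%, 22.5% to 42.0% and 13.9% to 29.6%. The log2 difference in peak number ranged from -0.12 to 0.36.

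With the replicate block the difference in peak number was 0.12 with an exact p of 1. The SE was 0.12 with the block and 0.27 without it, and replicate 2 was the shorter list in both conditions. Over regions, deviations of same-numbered libraries had a correlation of 0.00074, and of 0.024 with lists of equal length. Whether the numbers pair the libraries cannot be told from these values.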
